A study of Arabidopsis thaliana with 6 samples.

Results

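The *CBF/DREB1* genes were measured by 6 probes, 1 for each of the 6 genes *CBF1* (AT4G25490), *CBF2* (AT4G25470), *CBF3* (AT4G25480), *CBF4* (AT5G51990), *DDF1* (AT1G12610) and *DDF2* (AT1G63030), among the 43603 probes of the array that are not controls. The probes were chosen by locus alone: each carries a transcript accession that RefSeq assigns to one of these loci. The arrays compared 3 biological repeats of OsbHLH068OE, *Arabidopsis* plants in which the 35S promoter, active in most plant cells, drives the rice bHLH gene *OsbHLH068*, with 3 repeats of Col-0, the wild-type accession. RNA came from aerial tissue of 17-day-old plants in both groups, and the labels name no cold or other treatment. The transformant is a single line, *35S::OsbHLH068* (9), and the level of the rice transgene was not analysed here.

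The CBF/DREB1 proteins are AP2/ERF transcription factors that bind the C-repeat, or dehydration-responsive element, in the promoters of cold-regulated genes. In *Arabidopsis*, *CBF1*, *CBF2* and *CBF3* are induced within minutes to hours of a fall in temperature and switch on *COR* genes, whose products protect membranes and proteins during freezing. *CBF4* is known from drought and abscisic acid responses and *DDF1* from the response to salt, and *DDF2* is a close homolog of *DDF1*. Without cold, *CBF1*, *CBF2* and *CBF3* are transcribed at a low level that follows the circadian clock.

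*CBF2* carried the finding, so its probe is shown. It is a 60-base oligonucleotide for a gene on chromosome 4, printed 5′ to 3′ with no base marked.

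*CBF2* probe: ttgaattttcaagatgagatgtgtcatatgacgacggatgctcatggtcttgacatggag

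Its GC content is 41.7%. Read from its first base it holds 0 stop codons, and each of the other frames in this direction holds 2. The signal at this spot is all that the arrays say about *CBF2*, since no other probe was matched to the gene.

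*CBF2* was lower in OsbHLH068OE. Its log2 signal was 4.26, 4.67 and 4.74 in the 3 OsbHLH068OE arrays, against 7.85, 7.54 and 7.58 in the 3 Col-0 arrays. Every OsbHLH068OE array was below every Col-0 array, by a gap far wider than the spread within either group. The means were 4.56 ± 0.258 in OsbHLH068OE and 7.66 ± 0.172 in Col-0 (SD, n = 3 each), and OsbHLH068OE minus Col-0 gave a log2 difference of −3.10 ± 0.161 (standard error). The limma fit across all probes gave a Benjamini-Hochberg adjusted P = 0.0131, or 0.117 with the replicate number as a block. The scanner marked the spot as well above background on 0 of 3 OsbHLH068OE arrays and on 3 of 3 Col-0 arrays. With its OsbHLH068OE spots at background, *CBF2* has no exact fold. In the deposited values the measured difference was 8.56-fold, lower in OsbHLH068OE. The rule used for a bound on the fold raises OsbHLH068OE values below the dimmest spot well above background on their array. None needed raising, so the rule gave back the measured difference and set no bound of its own. The fold depends on the background correction, as given below. Among all probes, 49 had this pattern of flags (0.112%).

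The same separation stood in the scanner signal before any correction. The median signal of the *CBF2* spot was 72, 75 and 73 intensity units in OsbHLH068OE, against 294.5, 258 and 239 units in Col-0. The local background around it was 35, 32.5 and 31 units in OsbHLH068OE and 31, 28 and 36 units in Col-0. The signal after the scanner's own background subtraction was 5.54, 11.5 and 11.7 units in OsbHLH068OE and 204, 180 and 169 units in Col-0. Background at the spot thus overlapped between the groups while the signal did not.

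**Figure D1:**
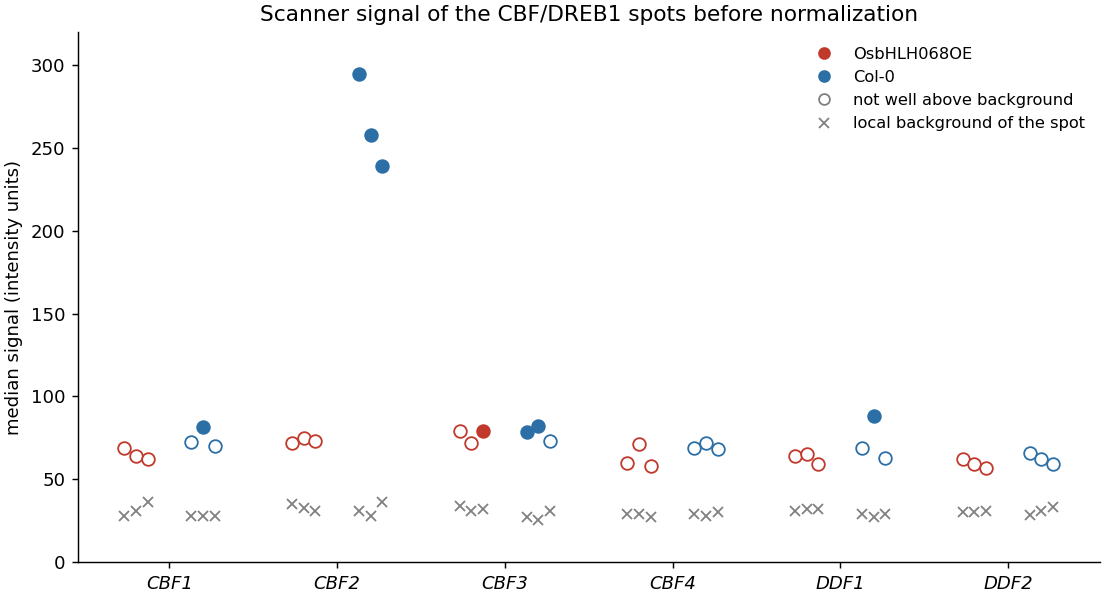
The vertical axis gives the median scanner signal of each *CBF/DREB1* spot in intensity units, with OsbHLH068OE left of Col-0 for each gene, filled circles for spots well above background, open circles for the rest and crosses for local background. The *CBF2* spot read 72 to 75 units in OsbHLH068OE and 239 to 294.5 units in Col-0, while local background was alike in both groups. Levels of different probes are not comparable.

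A probe counted as a differentially expressed probe (DEP) where its log2 fold change was above 1 or below −1 and its limma P was under 0.05 without adjustment, which are the study's own thresholds. By this rule 1 of the 6 *CBF/DREB1* probes, *CBF2*, was a DEP, in the lower direction, beside 0.789% of all probes in that direction. *CBF2* was also the 1 member with an adjusted P under 0.05, beside 0.261% of all probes with such a P and a lower value. Its log2 fold change was the 10th lowest on the array. The study names *CBF2* among the changed genes of these same arrays, so the choice of the family is not independent of this result. It also reports lower *CBF2* mRNA by quantitative PCR in its overexpressing lines, with RNA from the same aerial tissues. A two-sided exact permutation test over the 6 arrays gave p = 0.1 for *CBF2*, the floor of a comparison of this size.

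The size of the *CBF2* difference depended on how background was handled, since the OsbHLH068OE spots lay near it. It was −1.77 on the log2 scale once 50 was added after normexp, −1.79 with no background correction and −4.20 with the scanner's processed signal scaled to the 75th percentile. All 19 alternatives kept *CBF2* a DEP. Its adjusted P was 0.117 with the replicate number as a block and 0.0787 with the methods' t-test. Leaving out 1 array at a time, it was 0.132 without OsbHLH068OE replicate 2, 0.0800 without Col-0 replicate 2, 0.0819 without Col-0 replicate 3 and under 0.05 without each of the other 3. Replicate 1 of both groups was on one slide and replicates 2 and 3 of both were on another. The difference was −3.59 on the slide with 1 array of each group and −2.85 on the slide with 2 of each, and the adjusted P was 0.0392 with slide as a block.

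**Figure D2:**
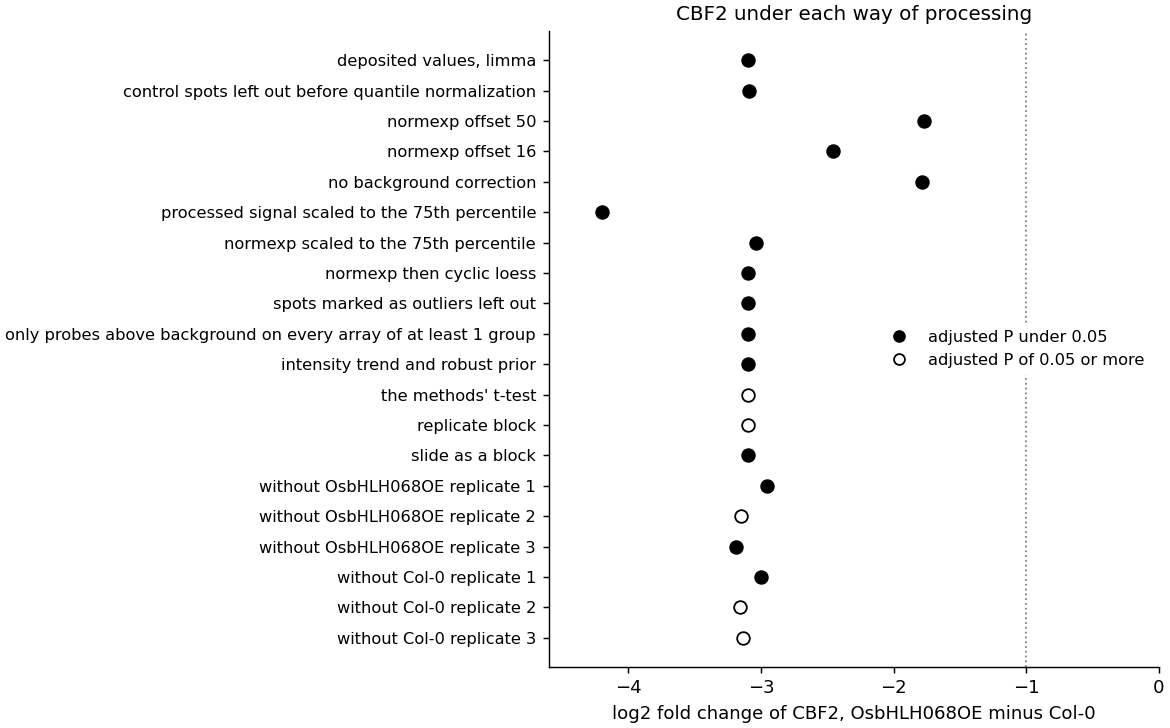
The horizontal axis gives the log2 fold change of *CBF2*, OsbHLH068OE minus Col-0, for the deposited values and each of the 19 alternatives (rows), with filled circles for an adjusted P under 0.05 and a dotted line at −1. The values run from −4.20 to −1.77, all beyond −1.

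*CBF1*, a close paralog of *CBF2* in the same tandem cluster, gave 4.57, 3.92 and 3.41 in OsbHLH068OE and 4.69, 5.09 and 4.74 in Col-0. The groups did not overlap, yet the highest OsbHLH068OE value lay close under the lowest Col-0 value. OsbHLH068OE minus Col-0 was −0.87 ± 0.300 (standard error) on the log2 scale, short of the DEP threshold, at a limma adjusted P = 0.201. The spot was well above background on 0 of 3 OsbHLH068OE arrays and 1 of 3 Col-0 arrays, replicate 2. With Col-0 spots at background too, no bound on the fold is given. The log2 fold change was −0.21 with no background correction and −0.25 once 50 was added after normexp. The difference was −0.12 on the slide of replicate 1 and −1.25 on the other slide. *CBF1* passed as a DEP with the scaled processed signal (−1.82, adjusted P = 0.129) and without OsbHLH068OE replicate 1 (−1.18, adjusted P = 0.205).

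*CBF3*, the third gene of the cluster, gave 4.86, 4.57 and 4.99 in OsbHLH068OE and 4.99, 5.19 and 4.74 in Col-0. The groups overlapped. The log2 difference was −0.17 ± 0.161 (standard error) with a limma adjusted P = 0.597, and the two-sided exact permutation test gave p = 0.5. The spot was well above background in OsbHLH068OE replicate 3 and in Col-0 replicates 1 and 2, and on no other array. Over the alternatives the log2 fold change stayed between −0.28 and −0.02.

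*DDF1*, known from salt responses and from repression of growth through gibberellin breakdown when overexpressed, gave 3.92, 3.92 and 3.55 in OsbHLH068OE and 4.41, 5.33 and 4.18 in Col-0. Its groups did not overlap, and Col-0 replicate 2 stood above the other Col-0 arrays. That array was the single one with the spot well above background. The log2 difference was −0.84 ± 0.310 (standard error) with a limma adjusted P = 0.221. It was −0.22 with no background correction and −0.25 once 50 was added after normexp, and no bound on the fold is given. *DDF1* passed as a DEP without Col-0 replicate 3 (−1.08, adjusted P = 0.295), and its log2 fold change was −0.50 without Col-0 replicate 2.

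*CBF4* and *DDF2* were well above background on 0 of 6 arrays, so neither has a fold. *CBF4* read 3.72, 4.67 and 3.99 in OsbHLH068OE and 4.41, 4.71 and 4.51 in Col-0, and its groups overlapped (limma adjusted P = 0.396, or 0.236 with the replicate number as a block). *DDF2* read 3.83, 3.48 and 3.41 in OsbHLH068OE and 4.25, 3.84 and 3.28 in Col-0, and its groups overlapped too (limma adjusted P = 0.673). A difference in either gene was not detectable at this signal.

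**Figure D3:**
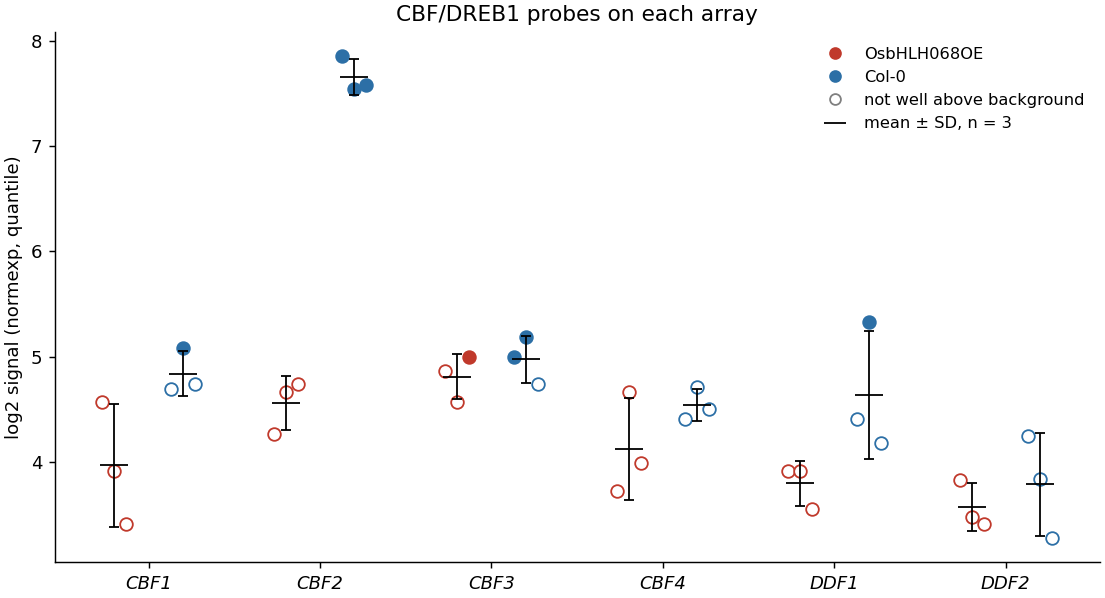
The vertical axis gives the deposited log2 signal of the 6 *CBF/DREB1* probes, with OsbHLH068OE left of Col-0 for each gene, filled circles for arrays with the spot well above background and bars for mean ± SD (n = 3). *CBF2* averaged 4.56 in OsbHLH068OE and 7.66 in Col-0, and the other genes differed by less than 1. Levels of different probes are not comparable.

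Read together, the 6 probes had 6 negative log2 fold changes, beside 47.2% of all probes. Groups did not overlap in 3 of them, all lower in OsbHLH068OE, beside 12.3% of all probes in that direction. The median log2 fold change of the 6 was −0.63, against 0.018 over all probes. Within same-numbered arrays, 4 of the 6 (*CBF1*, *CBF2*, *CBF4* and *DDF1*) were lower in OsbHLH068OE in 3 of 3 pairs, beside 22% of all probes, and *CBF3* and *DDF2* in 2 of 3. These counts rest on dim spots. Apart from *CBF2*, the members were well above background in 1 of 15 readings in OsbHLH068OE and in 4 of 15 in Col-0, and 22.7% of all probes were above it on no array. None of the member spots was saturated.

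*CBF2* was set against each paralog by its difference within an array, compared between the groups. The group difference of *CBF2* less that of the other gene was −2.23 for *CBF1*, −2.93 for *CBF3* and −2.25 for *DDF1* on the log2 scale. The OsbHLH068OE and Col-0 arrays did not overlap in these pairs (two-sided exact permutation p = 0.1, the smallest possible, and 0.25 after Benjamini-Hochberg adjustment over the 15 pairs compared). *CBF4* and *DDF2* are left out here as they were above background nowhere. The paralogs were at or near background on most arrays and *CBF2* on every OsbHLH068OE array, so these values largely restate the difference of *CBF2* itself and do not show how the paralogs responded.

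*CBF2*, *CBF3* and *CBF1* follow one another on chromosome 4 with 0 genes between them in the RefSeq annotation (TAIR10.1). The 3 protein-coding genes on each side were compared as neighbours: *NUDT10*, *ZFWD1* and *ABCB28* before *CBF2*, and *RS40*, AT4G25510 and *SLK3* after *CBF1*. Their 9 probes had log2 fold changes between −0.29 and 0.083, and 0 were DEPs. Since 0.789% of all probes were lower and 0.378% higher DEPs, a count of 0 among 9 says little. Both *ZFWD1* probes, at −0.24 and −0.29, had an unadjusted P under 0.05 (limma adjusted P = 0.191 and 0.153). AT4G25510 was above background on no array. *CBF2* was thus the 1 gene in this stretch to pass the DEP rule.

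The genes whose values most resembled those of *CBF2* were ranked by Euclidean distance over the 6 arrays, after subtracting each probe's Col-0 mean, among 27067 probes of 19392 genes. Nearest was *TCH4*, a xyloglucan endotransglucosylase gene induced by touch, with a distance of 0.727 and a log2 fold change of −2.82. *PHI-1*, an *EXORDIUM*-like gene, followed at 0.875 (−3.18), and *EXO*, the cell-expansion gene *EXORDIUM*, at 1.13 (−2.88). AT1G33760, another AP2/ERF gene, had a distance of 1.16 (−3.69), and *MYB44*, a stress-related MYB factor, 1.20 (−2.44). The median distance over all candidates was 5.43. A short distance reflects mainly the size of the group difference, and says nothing of shared control. All 5 were well above background on all 6 arrays.

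**Figure D4:**
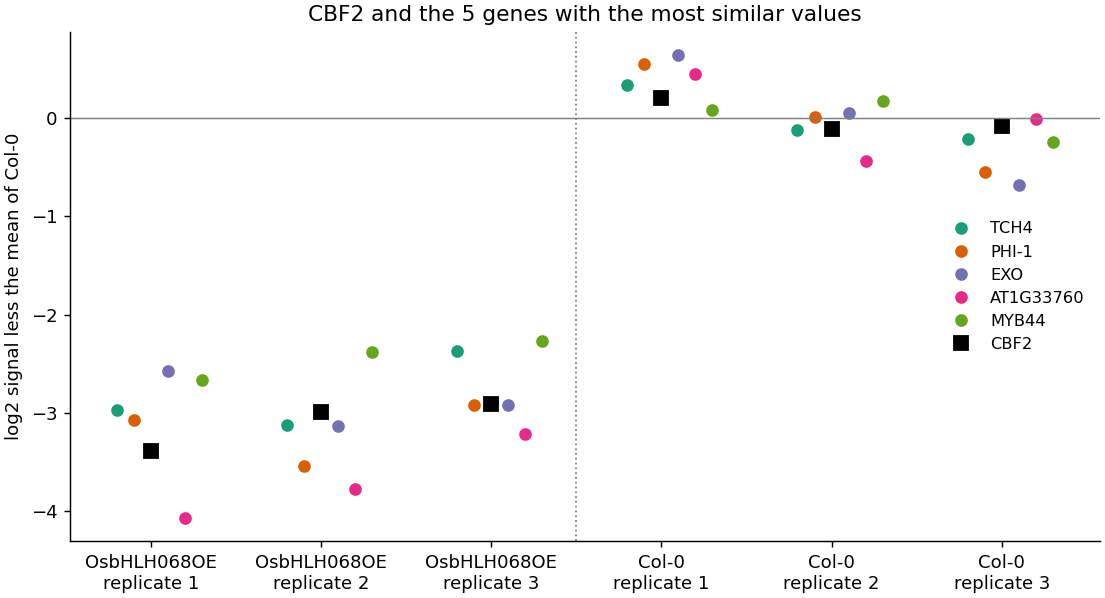
The vertical axis gives the log2 signal of *CBF2* (squares) and of the 5 genes with the most similar values (circles), each less its own Col-0 mean, and the horizontal axis gives the arrays, OsbHLH068OE left and Col-0 right. All 6 genes lie more than 2 below the Col-0 mean on each OsbHLH068OE array.

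Around the *CBF* genes, 5 lists of pathway genes were examined. They held 63 genes, of which 62 were on the array with 89 probes, and 8 probes were lower and 3 higher DEPs. Beside them, 0.789% of all probes were lower and 0.378% higher DEPs.

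Upstream activators of the *CBF* genes did not pass the DEP rule in any of 22 probes for 13 genes, and their median log2 fold change was 0.006. At an unadjusted P under 0.05, 6 probes were lower and 2 higher, beside 8.88% and 10.9% of all probes. *ICE1*, the bHLH factor that binds the *CBF3* promoter, had 0.05 and −0.04 for its probes (limma adjusted P = 0.799 and 0.843). *ICE2*, its homolog, had 0.14 and 0.006 (adjusted P = 0.353 and 0.986). The probe of *OST1*, a kinase that stabilises ICE1, had 0.07 (adjusted P = 0.868). *CAMTA1*, a calmodulin-binding activator of *CBF* genes, had 0.05 and 0.006 (adjusted P = 0.705 and 0.976). Groups did not overlap in 7 lower and 5 higher probes of the list. Over all probes the share was 12.3% in the lower direction and was not counted in the higher direction. The probes without overlap included the *ICE2* probe at 0.14 and all probes of the genes that follow, with small differences. *CAMTA5* had −0.46 and −0.48 (adjusted P = 0.0819 and 0.0920), and *CAMTA3*, a relative of *CAMTA1*, had −0.40 and −0.39 (adjusted P = 0.163 and 0.161). The clock-related MYB gene *RVE4* had −0.35 and −0.32 (adjusted P = 0.162 and 0.199), and the morning clock gene *LHY* had 0.33 (adjusted P = 0.166). *CCA1*, another gene of the list, had 0.21, 0.23 and 0.19 (adjusted P = 0.224, 0.289 and 0.273).

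Among repressors of the *CBF* genes, 0 of 19 probes for 15 genes were DEPs, beside 0.789% lower and 0.378% higher DEPs among all probes. At an unadjusted P under 0.05, 4 were lower and 2 higher, beside 8.88% and 10.9% of all probes. The median was −0.25. The count of lower DEPs was 1 without OsbHLH068OE replicate 3 or without Col-0 replicate 1. *MYB15*, which binds *CBF* promoters and lowers their activity, had −0.81 and −0.74 with wide errors (standard error 0.637 and 0.709, limma adjusted P = 0.510 and 0.591). Its first probe read 4.77, 6.14 and 6.28 in OsbHLH068OE and 5.47, 7.57 and 6.59 in Col-0, so its groups overlapped, with replicate 1 the lowest array in each. Within same-numbered arrays both probes were lower in OsbHLH068OE in 3 of 3 pairs, and with the replicate number as a block the adjusted P was 0.184 and 0.253. *HOS1*, the ubiquitin ligase that targets ICE1, had −0.07 (adjusted P = 0.610). The clock genes *PRR5* and *PRR7* had −0.27 (adjusted P = 0.459), and −0.02 and 0.08 (adjusted P = 0.940 and 0.631). The groups did not overlap in 8 lower and 2 higher probes of the list. Over all probes the share was 12.3% in the lower direction and was not counted in the higher direction. *HOS1* was among the probes without overlap. So were *PIF7*, a phytochrome-interacting bHLH gene, at 0.65 and 0.69 (adjusted P = 0.111 and 0.0931), and the kinase gene *MPK3* at −0.91 (adjusted P = 0.128). *PIF3*, a relative of *PIF7*, was another, at −0.41 and −0.27 (adjusted P = 0.0950 and 0.349).

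The *CBF* target genes that passed the DEP rule were higher in OsbHLH068OE. Of 21 probes for 14 genes, 2 were DEPs, both higher. A positive log2 fold change was seen in 19, while 47.2% of all probes had a negative one. All probes of *COR47* and *ERD10* were among these 19, yet were lower in OsbHLH068OE in 2 of 3 same-numbered pairs. *COR15B*, *COR6.6*, *XERO2*, *COR413PM1*, *GOLS3* and *RAP2.1* were higher in 3 of 3 pairs at every probe. At an unadjusted P under 0.05, 8 probes were higher and 0 lower, beside 10.9% and 8.88% of all probes. *COR6.6*, a small protein gene of the cold response, read 13.97, 13.73 and 13.25 in OsbHLH068OE and 12.06, 12.95 and 12.58 in Col-0. Its groups did not overlap, and it rose by 1.12 ± 0.282 (standard error, log2 scale), at a limma adjusted P = 0.130. *KIN1*, its neighbour and near-identical copy, read 12.91, 12.74 and 12.33 in OsbHLH068OE and 11.08, 12.11 and 11.59 in Col-0. It rose by 1.06 (limma adjusted P = 0.146), and a probe for either copy could take up signal from the other. Another *KIN1* probe, above background on 1 array, had −0.09.

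*COR15B*, which encodes a chloroplast protein that protects membranes in the cold, had the clearest separation of the target genes by adjusted P. It read 7.18, 6.89 and 6.88 in OsbHLH068OE, against 6.06, 6.14 and 6.12 in Col-0, a difference of 0.88 ± 0.108 (standard error) at a limma adjusted P = 0.0459, short of the DEP threshold. Over all probes 0.266% were higher with such a P. *COR15A*, its paralog, had 0.43 (adjusted P = 0.324). The 3 probes of *COR47*, a dehydrin gene, lay between 0.007 and 0.06. The median of the list was 0.47. The 2 higher DEPs depended on single arrays, since both probes fell under the fold threshold without OsbHLH068OE replicate 1 or without Col-0 replicate 1, with log2 fold changes of 0.96 and 0.88 for *COR6.6* and 0.94 and 0.81 for *KIN1*.

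Other transcription factors of the early cold response, which are induced beside the *CBF* genes, held most of the calls. Of 17 probes for 13 genes, 8 probes of 6 genes were lower DEPs and 1 was a higher DEP, beside 0.789% and 0.378% of all probes. The median log2 fold change was −0.92. The list was written with earlier results of these data known, so this count is not independent of them. The lower genes were *MYB44*, *MYB73*, *ERF6*, *ZAT12*, *CZF1* and *WRKY33*, which are also known from wounding, touch and defence. Without OsbHLH068OE replicate 1 the count of lower DEPs was 5.

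*MYB44* read 11.89, 11.86 and 12.20 at one probe in OsbHLH068OE, against 14.63, 14.61 and 14.01 in Col-0. At both of its probes the difference was −2.44, with limma adjusted P = 0.0281 and 0.0274. *MYB73*, a related MYB gene, read 11.72, 11.75 and 12.09 in OsbHLH068OE, against 13.68, 13.71 and 13.40 in Col-0 (log2 fold change −1.74, adjusted P = 0.0281). In both genes every OsbHLH068OE array was below every Col-0 array.

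*ZAT12*, a zinc-finger gene that acts in a cold pathway beside the *CBF* genes, read 9.23, 9.22 and 9.31 in OsbHLH068OE, against 10.32, 10.60 and 11.05 in Col-0. The difference was −1.41, with a limma adjusted P = 0.0513. *ERF6*, an ethylene-response factor gene, had −1.62 at one probe (adjusted P = 0.103) and −0.80 at the other (adjusted P = 0.144). *CZF1*, a tandem zinc-finger gene, had −1.16 and −1.12 (adjusted P = 0.0800 and 0.111). *WRKY33*, a defence regulator gene, had −1.08 (adjusted P = 0.181). *WRKY33* was no DEP without OsbHLH068OE replicate 1 (−0.76), Col-0 replicate 2 (−1.06) or Col-0 replicate 3 (−0.92), nor with the methods' t-test, where its difference was the same. The second *CZF1* probe was none without OsbHLH068OE replicate 1 (−0.93) or Col-0 replicate 3 (−0.91), with a normexp offset of 50 (−0.87) or with no background correction (−0.89), nor the first without OsbHLH068OE replicate 1 (−0.98).

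*RAV1*, an AP2/B3 factor gene, was the higher DEP. It read 11.72, 11.76 and 11.69 in OsbHLH068OE, against 10.33, 10.49 and 10.71 in Col-0, a rise of 1.21 with a limma adjusted P = 0.0319. With the replicate number as a block the adjusted P was 0.117 for *COR15B*, *MYB44*, *MYB73* and *RAV1*, so these calls by adjusted P were lost, while every DEP of the lists was kept. With single arrays left out, the adjusted P of these 4 genes was under 0.05 without Col-0 replicate 1 and between 0.0522 and 0.229 without any other array.

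The *DREB2* genes, relatives of the *CBF* genes known from heat and dehydration, had 10 probes for 7 of 8 genes and 0 DEPs. Their median was −0.18. At an unadjusted P under 0.05 they also had 0, beside 8.88% lower and 10.9% higher of all probes. *DREB2A* had −0.11, −0.30 and −0.22 at its probes, of which the first was above background on all 6 arrays. *DREB2B* had −0.34 (limma adjusted P = 0.303), *DREB2C*, above background on no array, −0.07, and *DREB2D* −0.55 and −0.54 (adjusted P = 0.465 and 0.441).

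**Figure D5:**
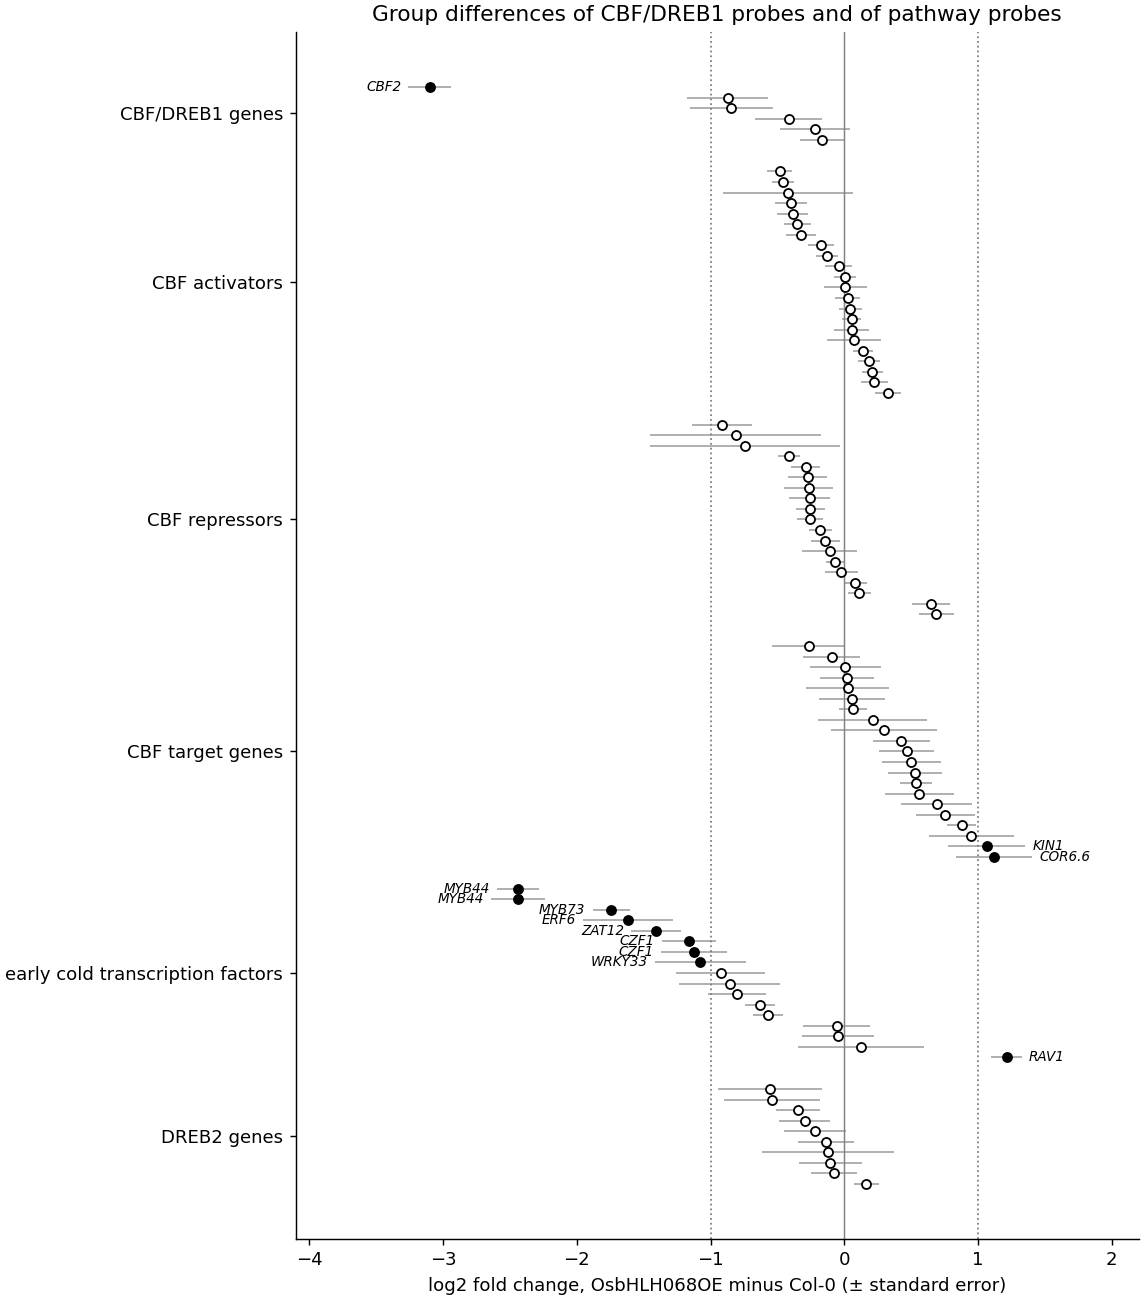
The horizontal axis gives the log2 fold change, OsbHLH068OE minus Col-0, with its limma standard error, for each probe of the *CBF/DREB1* genes and of the 5 pathway lists (rows), with DEPs filled and named and dotted lines at −1 and 1. *CBF2* stands at −3.10, the early cold transcription factors hold 8 lower DEPs and 1 higher, and the target genes hold 2 higher.

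Across the whole series the arrays were alike in brightness, with 70.9% to 74.0% of probe spots well above background, median signals of 284 to 322 units in OsbHLH068OE and 311 to 356 units in Col-0, and correlations of at least 0.977 between any arrays of different groups. Leaf markers were above background in all 50 probes and averaged log2 signals of 16.34 to 16.36 in OsbHLH068OE and 16.27 to 16.31 in Col-0. Of them *GLK1*, a chloroplast regulator gene, had an adjusted P under 0.05 at 0.79 (limma adjusted P = 0.0484, or 0.117 with the replicate number as a block). Of 15 root marker probes 4 were above background on no array, and the list averaged 6.27 to 6.51 in OsbHLH068OE and 6.04 to 6.43 in Col-0. Their part in the *CBF2* difference was not tested. In bulk tissue, fewer cells that express a gene and less RNA per cell cannot be told apart.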

How the data were processed

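The authors read the arrays with Agilent Feature Extraction 10.7.1.1 and deposited spot and background signals as intensity values. The log2 values analysed here were also deposited by the authors, who applied normexp background correction and quantile normalization in limma. Repeating these steps from the median signals with an offset of 0 gave the same values within 5e-09, with repeat spots averaged. The 43603 probes that are not controls were fitted with limma 3.58.1 in R 4.3.3 (lmFit and eBayes), with all 6 arrays and no covariate, and P values were adjusted by the Benjamini-Hochberg method over all probes. Transcript accessions gave a gene for 34358 probes (78.8%) through RefSeq (TAIR10.1), and promoter sequences were not analysed here.

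Same-numbered arrays of the groups deviated together from their group means (correlations of 0.475, 0.310 and 0.151 for replicates 1, 2 and 3 over 30299 probes). The replicate number was therefore also fitted as a block that pairs the samples. The main P values come from the fit without this block and ignore the pairing. Only the numbers come from the labels, and the pairing rests on these correlations. It is weakest for replicate 3, as OsbHLH068OE replicate 3 correlated best with Col-0 replicate 2, which was on the same slide. The replicate 1 arrays were alone on their slide, so number and slide cannot be told apart for them. The methods mention pooling of labeled cRNA before hybridization without naming what was pooled, and P values measure the spread between the arrays deposited. Of each list, every gene with a DEP or an adjusted P under 0.05 was named, or otherwise up to 4 of the first written. *CAMTA3*, *CAMTA5*, *RVE4*, *LHY*, *PIF3*, *PIF7*, *MPK3*, *COR15A*, *COR47* and the neighbours *ZFWD1* and AT4G25510 were named after their values were seen. So were *CCA1*, *ERD10*, *XERO2*, *COR413PM1*, *GOLS3* and *RAP2.1*. The members and the lists were chosen with earlier results of these data known. Alternatives were other background corrections, normalizations, filters, variance priors, the methods' t-test, blocks, thresholds and leaving out each array.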

Additional observations from a re-analysis of the deposited data

How the results depend on the processing

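The count of *CBF/DREB1* DEPs, 1 in the deposited values, was 2 with the scaled processed signal, 3 with a fold threshold of 0.58 and from 1 to 2 with single arrays left out. The 11 DEPs of the lists became 21 with a fold threshold of 0.58, 4 with 1.5 and 5 with an adjusted P under 0.05 in place of the fold, and from 6 to 13 with single arrays left out. *DDF2* changed sign to 0.098 with the scaled processed signal and 0.013 without Col-0 replicate 1 (−0.47 to 0.013 over the arrays left out), and the cause was not tested. With replicate number as a block *CBF2* kept its log2 fold change of −3.10, its adjusted P was 0.117, and the counts stayed at 1 and 11. Under the block every DEP of the members and lists stayed one, and the calls by adjusted P of *MYB44*, *MYB73*, *RAV1*, *COR15B* and *GLK1* were lost too, each at 0.117. Over all probes DEPs numbered 509 in the deposited values, 323 with a normexp offset of 50, 320 without background correction, 923 with the scaled processed signal and 1060 without Col-0 replicate 1. Probes with an adjusted P under 0.05 numbered 230 in the deposited values, 1 under the block, 0 with the methods' t-test (396 DEPs) and up to 2684 without Col-0 replicate 1. The share of DEPs that were lower was 67.6% in the deposited values and 53.7% with the scaled processed signal. The activator and *DREB2* lists held 0 DEPs under all 19 alternatives. Dim spots leave *CBF1*, *CBF3*, *CBF4*, *DDF1* and *DDF2* without a bounded fold.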
